A study of Caenorhabditis elegans with 2 samples.

Results

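The results concern 10 axon guidance genes of Caenorhabditis elegans, among the 19973 genes annotated there as protein-coding on 6 nuclear chromosomes. They comprise the netrin ligand unc-6 with its receptors unc-40 and unc-5, the Slit ligand slt-1 with its receptor sax-3, the ephrin receptor vab-1, the intracellular effectors unc-34, mig-10 and unc-73, and the adhesion molecule sax-7. ChIP-seq (chromatin immunoprecipitation with sequencing) labelled as against FKH-10, a forkhead transcription factor, had been made in 2 biological replicates of whole L3 larvae of mixed sex. Per the labels both replicates were strain OP337, which carries unc119(ed3) and the insertion wgIs377, a transgene of fkh-10 fused at its C-terminal end to TY1, EGFP and FLAG, with unc119 as marker. The series held 1 group, so no condition was compared with another. Nothing in the labels says in which cells the transgene was expressed, and in whole animals strong binding in few cells and weak binding in many cannot be told apart. The genes were chosen by name with earlier results of these data known, and the regions at them were selected by the position of their summits in the authors' lists. All counts of regions at the genes are therefore descriptions and carry no test.

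Growing axons read guidance cues at the growth cone. UNC-6, a netrin, is secreted ventrally, and draws axons expressing UNC-40 (the DCC receptor) while repelling those that also carry UNC-5. SLT-1 is secreted dorsally and acts through SAX-3 (Robo), and VAB-1 is the Eph receptor tyrosine kinase to which ephrins bind. Inside the growth cone UNC-34 (Enabled) and MIG-10 (the lamellipodin homologue) organise actin, and UNC-73 (Trio) is an exchange factor that activates Rac GTPases. SAX-7 (L1CAM) is a cell adhesion molecule that holds neurons and their processes in place.

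The sequence around the strongest pooled region is shown for mig-10, sax-7, vab-1 and unc-34, because these are the highest signals at the members apart from unc-73 and unc-40, whose sequence is not printed. Each line gives 101 bases of build ce11 (WBcel235, RefSeq) on the plus strand, which is the coding strand of all 4 genes, 5′ to 3′. Capitals mark the base at the summit and, at vab-1, a forkhead core as well. The windows are chrIII:8286188-8286288, chrIV:8076651-8076751, chrII:4576986-4577086 and chrV:993387-993487, in this order.
mig-10: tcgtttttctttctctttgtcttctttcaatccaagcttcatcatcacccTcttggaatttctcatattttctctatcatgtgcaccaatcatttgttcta
sax-7: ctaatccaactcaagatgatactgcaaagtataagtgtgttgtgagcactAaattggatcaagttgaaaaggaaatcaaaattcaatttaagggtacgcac
vab-1: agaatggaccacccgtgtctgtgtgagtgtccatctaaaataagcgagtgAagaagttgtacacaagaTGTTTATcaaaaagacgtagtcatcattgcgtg
unc-34: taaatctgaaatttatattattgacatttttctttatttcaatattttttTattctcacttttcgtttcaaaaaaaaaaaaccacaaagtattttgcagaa
The mig-10 window, at the strongest of these regions, consisted of pyrimidines to 74.3%, and 6.18% of the 2005 windows around thresholded summits were at least as rich in pyrimidines or in purines. The vab-1 window held TGTTTAT, the reverse complement of the forkhead core ATAAACA, centred 21 bp from the summit. The sax-7 window lay over coding sequence and the unc-34 window, with 18.8% G and C, in an intron.

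None of the 6 netrin, Slit and ephrin genes had a thresholded summit in its window, and 3 of the other 4 genes did. The window ran from 2 kb upstream of the annotated 5' end to the gene's end. The thresholded list held the 2005 peaks that the authors kept by the irreproducible discovery rate (IDR), a measure of how consistently regions rank between lists. These were exactly the 2005 regions with the highest signal among the 30000 of the pooled list, down to a signal of 28.20. Signal values are the authors' own, with a scaling that was not stated, and serve here to describe and rank regions within a list. Of all protein-coding genes, 8.71% had a thresholded summit in the same kind of window. The rule for the members used the same lists, so nothing is read from their share of 3 in 10 or from the contrast between pathways. The contrast also changed with the setting. With 5 kb upstream, unc-5, sax-3 and unc-34 had a thresholded summit too. With the 2005 strongest regions of replicate 2 in place of the thresholded list, unc-40 was added. The windows of the genes also differed in length, as described next.

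The 10 windows were long, from 9.5 kb at unc-6 to 34.7 kb at unc-5, and a thresholded summit was more often found in longer windows. It was found at 7.05% of protein-coding genes with windows under 9 kb, 22.6% with 9 to 20 kb, 34.5% with 20 to 35 kb and 47.5% with over 35 kb. Among the 5 members of the 9 to 20 kb class (unc-6, unc-40, slt-1, sax-3 and unc-34) 0 had one. Among the 5 members of the 20 to 35 kb class, unc-73, mig-10 and sax-7 had one and unc-5 and vab-1 did not. In all, 6 thresholded summits lay in 208.6 kb of member windows, or 0.288 per 10 kb against 0.2 per 10 kb of the genome. Without unc-73 the other 9 windows held 2, or 0.115 per 10 kb. The density of thresholded summits at the members thus rested on unc-73.

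**Figure D1:**
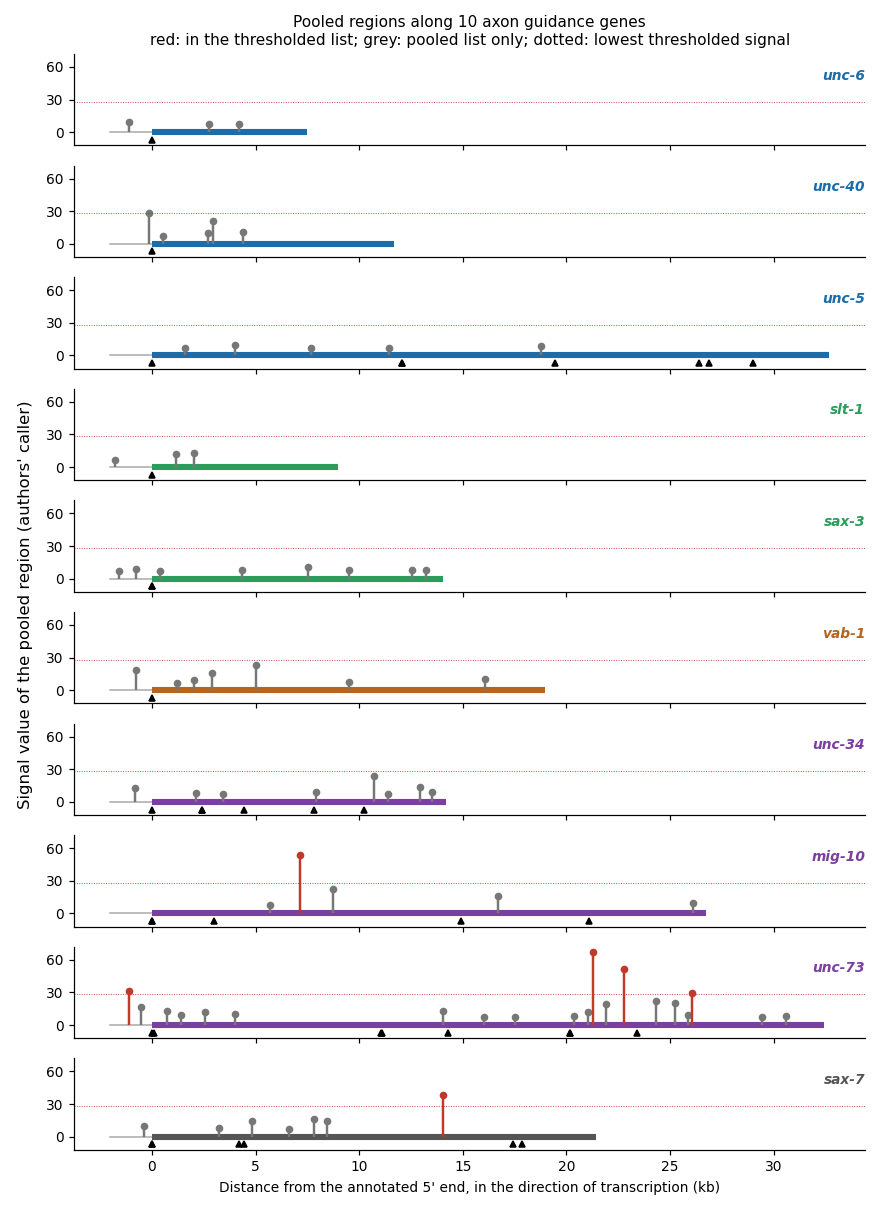
Signal of each pooled region (vertical axis, the authors' signal value) against the distance of its summit from the gene's annotated 5' end (horizontal axis, kb), with 1 panel a gene and triangles at annotated transcript starts. The 6 thresholded summits, in red, lie at mig-10, unc-73 and sax-7, and the region at the start of unc-40 reaches the dotted line of the lowest thresholded signal, 28.20, from below.

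Among the netrin genes, only unc-40 had a region near the threshold. The netrin gene unc-6 (WBGene00006746, X, 6889674 to 6897147, plus strand) had 3 pooled regions with signals of 9.33, 7.27 and 7.95. The first lay 1119 bp upstream, and the others in introns. For the last 2 neither replicate had a summit within 150 bp. The nearest thresholded summits lay 37390 bp beyond the gene's end and 111611 bp beyond the upstream edge of its window, so the ligand gene stood in a stretch free of thresholded peaks.

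The receptor gene unc-40 (WBGene00006776, chromosome I, 5679837 to 5691503, minus strand) had a region 150 bp upstream of its 5' end, at 5691471 to 5691834. With a signal of 28.16 it ranked 2011 in the pooled list, 6 ranks below the last thresholded peak. Whether the authors' thresholded list on the older build ce10 holds it was not analysed here, so its absence is stated for the list on ce11. In replicate 2 a summit lay 19 bp away, with signal 15.7 and rank 1345. In replicate 1 the nearest summit was 153 bp away, with signal 11.2 and rank 4657. The region was thus among the 2005 strongest of replicate 2 and not of replicate 1. A further intronic region at 2931 bp had a signal of 21.4 and ranked 2463 in replicate 1 and 15367 in replicate 2. The 3 remaining regions had signals between 7.36 and 10.9, all in introns. That at 2730 bp overlapped the region at 2931 bp, and both were matched by the same region of replicate 1. The pooled regions at unc-40 are thus not all separate sites.

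The repulsive receptor gene unc-5 (WBGene00006745, IV, 5495664 to 5528338, minus strand) had 5 pooled regions, all in introns, with signals from 6.97 to 9.96. It had the longest window and the lowest density of pooled summits, 1.44 per 10 kb against 2.99 per 10 kb of the genome. Of the 5, a summit within 150 bp was found in both replicates for the region 4012 bp into the gene, where replicate 1 ranked it 29046 and replicate 2 ranked it 24219. A thresholded summit with signal 30.5 lay 2680 bp upstream of the 5' end, 680 bp outside the window. No protein-coding gene started nearer to it than unc-5.

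Both Slit pathway genes lie on X and had weak regions in their windows. The ligand gene slt-1 (WBGene00004854, X, 14674328 to 14683324, plus strand) had 3 pooled regions with signals of 6.95, 11.9 and 12.7, in order along the gene. The last, in an intron 2054 bp from the 5' end, was found in both replicates and ranked 23440 in replicate 1 and 3740 in replicate 2. The Robo gene sax-3 (WBGene00004729, X, 3451908 to 3465927, minus strand) had 8 pooled regions with signals between 7.06 and 10.5. They were spread over the gene, 2 upstream, 3 in introns and 3 in coding exons. The replicates differed in number there, with 3 regions in the list of replicate 1 and 8 in that of replicate 2. Of the 8 pooled summits, 5 were matched in replicate 2 alone, 2 in replicate 1 alone and 1 in both. As at unc-5, a thresholded summit lay upstream of the window, here 3567 bp from the 5' end with signal 53.8. Among protein-coding genes, sax-3 was the one starting nearest to it.

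The Eph receptor gene vab-1 (WBGene00006868, II, 4572000 to 4590970, plus strand) had 7 pooled regions and the strongest unthresholded signals of the ligand and receptor genes after unc-40. The highest, 23.7, was at the intronic region 5036 bp from the 5' end whose sequence is given above. It ranked 6949 in replicate 1 and 2123 in replicate 2. The next, 18.3, lay 777 bp upstream and ranked 5695 and 4697. Both replicates matched 4 of the 7 regions, a larger part than at any other of the 10 genes. With so few regions the exact 95% interval of this share ran from 18.4% to 90.1%. The interval treats the regions as independent, and does not allow for vab-1 being picked as the highest of the 10. A thresholded summit lay 15911 bp beyond the gene's end and none within the window.

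Set side by side per length, the density of pooled regions varied between genes of the same pathway. The 3 netrin genes together held 2.25 pooled summits per 10 kb, against 2.99 for the genome, but this low value rested on unc-5. Without it, a setting chosen after seeing the data, unc-6 and unc-40 held 3.46 per 10 kb, and 3.89 in the list of each replicate. The overlapping pooled regions at unc-40 were each counted. In the Slit pathway, sax-3 held 4.99 pooled summits per 10 kb and slt-1 held 2.73, and vab-1 held 3.34. In the list of replicate 1 these values were 1.87, 3.64 and 5.25, and in that of replicate 2 they were 4.99, 2.73 and 3.81. The order of sax-3 and slt-1 was thus not the same in the replicates. With 1 to 3 genes a pathway and 2 replicates, no test of differences between pathways could be made.

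**Figure D2:**
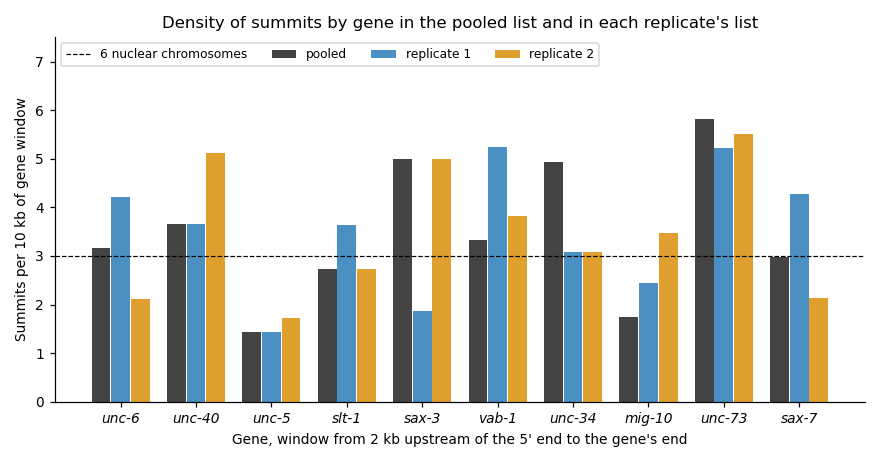
Summits per 10 kb of gene window (vertical axis) for each gene, in the pooled list and in the list of each replicate, with the genome's density in the pooled list, 2.99 per 10 kb, as a dashed line. Bars at unc-5 stay below the line in all 3 lists and those at unc-73 above it, and at unc-6, slt-1, sax-3, mig-10 and sax-7 the bars of the replicates, such as 1.87 and 4.99 at sax-3, lie on opposite sides of it.

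Of the intracellular effectors, unc-34 had no thresholded summit and mig-10 and unc-73 did. This Enabled gene (WBGene00006770, V, 982706 to 996914, plus strand) had 8 pooled regions with signals from 6.99 to 23.9. The highest was the intronic region 10731 bp from the 5' end, 501 bp past an internal transcript start. It ranked 3017 in replicate 1 and had no summit of replicate 2 within 150 bp, the nearest being 1772 bp away. None of the 8 was matched in both replicates, while 5 were matched in replicate 1 alone and 2 in replicate 2 alone. A thresholded summit with signal 32.9 lay 2812 bp upstream, 812 bp outside the window, and the start of Y50D4C.12 was slightly nearer to it, at 2687 bp.

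The lamellipodin gene mig-10 (WBGene00003243, III, 8279101 to 8305837, plus strand) had 1 thresholded summit, in an intron 7137 bp from the 5' end. The peak spanned 8286056 to 8286419 and had a signal of 53.6 and rank 534 of 2005. It ranked 1085 in replicate 1 with signal 25.0 and 426 in replicate 2 with signal 25.3. No other protein-coding gene's window held the summit, and the nearest annotated transcript start of mig-10 was 4131 bp away. Regions at 8719 bp (signal 22.4) and 16702 bp (signal 15.8), both intronic, were matched in replicate 2 alone, at ranks 2497 and 1721. Replicate 2 also listed more regions at the gene, 10 against 7 in replicate 1.

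The Trio gene unc-73 (WBGene00006805, chromosome I, 3999300 to 4031739, minus strand) carried 4 of the 6 thresholded summits and 20 of the 71 pooled ones. In the 20 to 35 kb class of windows 2.69% of genes had 4 or more thresholded summits and 2.24% had 20 or more pooled summits. The unc-73 window, of 34.4 kb, lay near the upper edge of this class. The median count of pooled summits was 8 in this class and 15.5 in the class over 35 kb. The 95th percentiles were 16.9 and 26. The strongest regions lay in the 3' part of the gene. Between 20380 and 26051 bp from the 5' end, a stretch chosen after the values were seen, 9 pooled summits lay within 5671 bp, and 3 of them were thresholded. Overlapping regions were counted singly, so the 9 are not all separate sites. The region at 4010293 to 4010656 overlapped that at 4010498 to 4010861, and 4005506 to 4005869 overlapped 4005707 to 4006070. An annotated internal transcript start lay in this stretch, at 23403 bp, and others lay just before it, at 20154 and 20161 bp.

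The strongest peak at any of the 10 genes was here, at 4010293 to 4010656 in an intron 21264 bp from the 5' end. With a signal of 67.5 it was number 250 of the thresholded list, and it ranked 462 in replicate 1 and 134 in replicate 2. The next, at 4008790 to 4009153, lay 22767 bp from the 5' end and 636 bp from the internal start at 23403 bp. It had a signal of 51.3 (rank 601) and ranked 781 in replicate 1 and 851 in replicate 2. Both replicates thus listed these regions among their 2005 strongest. The nearest protein-coding 5' end was that of F55C7.2 for both, at 5040 and 3537 bp. The third summit of the stretch, at 4005506 to 4005869 with signal 29.4 (rank 1887), also lay in an intron of F55C7.2, 253 bp from the 5' end of that gene. It ranked 520 in replicate 2, while the nearest summit of replicate 1 was 207 bp away. The remaining peak, at 4032643 to 4033006, lay 1086 bp upstream of the 5' end of unc-73 with signal 31.5 (rank 1676), and ranked 1753 and 1676 in the replicates.

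The L1CAM gene sax-7 (WBGene00004732, IV, 8062659 to 8084087, plus strand) had 1 thresholded summit, over a coding exon 14042 bp from the 5' end. The peak at 8076519 to 8076882 had a signal of 38.4, rank 1200, and ranked 902 in replicate 1 and 1368 in replicate 2. It was 3390 bp ahead of an internal transcript start at 17432 bp, and the nearest 5' end of a protein-coding gene was that of nsy-7, 9951 bp away. The other 6 pooled regions, 1 upstream and 5 in introns, had signals from 7.08 to 16.6. Replicate 1 listed 10 regions at the gene and replicate 2 listed 5, and no pooled summit was matched in replicate 2 alone.

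Across the 10 genes the lists of the replicates were of similar size, with 71 pooled summits, 72 in replicate 1 and 73 in replicate 2, and each gene had at least 2 in each. Such regions were common, since at least 1 pooled summit lay in 95.4% of windows of 9 to 20 kb and 99.6% of those of 20 to 35 kb. Of the 71 pooled summits, 21 (29.6%, exact 95% interval 19.3% to 41.6%) had a summit within 150 bp in both replicates, against 24.8% of all 30000 pooled summits. A further 25 were matched in replicate 1 alone, 15 in replicate 2 alone and 10 in neither. Over all 30000 pooled summits these counts were 10471, 7391 and 4690. The interval treats the summits as independent although some share a gene and a replicate region. Of the 36 summits at or above the members' median signal of 9.75, 17 were matched in both, and of the 35 below it 4 were. The same split of all pooled summits is not given here, so it is not read as particular to the members. Pooled regions were called from both replicates together, so their signal is not independent of the match.

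Over the 21 regions matched in both, the ranks of the replicates had a Spearman rank correlation of 0.634, beside 0.585 over all 7448 such regions. The points share the 2 libraries, and neighbouring summits can share a replicate region. Among the 2005 strongest regions of each replicate, 6 of replicate 1 lay at 3 members (unc-73, mig-10 and sax-7). From replicate 2, 11 lay at 4 members, the same 3 and unc-40. The shares of all protein-coding genes with such a region were 8.62% for replicate 1 and 8.33% for replicate 2. At unc-73 the count was 4 in replicate 1 and 7 in replicate 2. Those of replicate 2 include the overlapping regions 4010246 to 4010629 and 4010449 to 4010832.

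**Figure D3:**
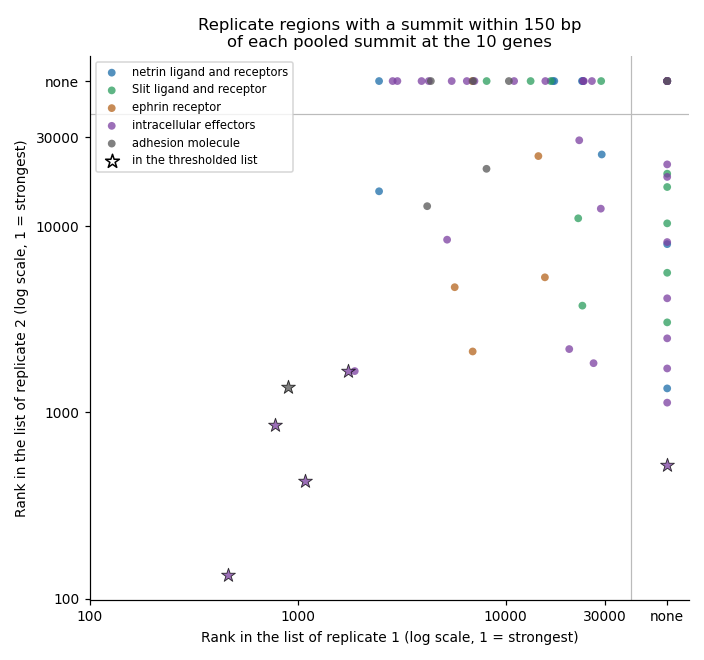
Rank in replicate 1 (horizontal axis, log scale) against rank in replicate 2 (vertical axis, log scale) of the region within 150 bp of each of the 71 pooled summits, with summits lacking such a region on the lines marked none. The thresholded summits, drawn as stars, lie at the strong end of both lists except for 1 at unc-73 that has no match in replicate 1.

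The members' regions lay mainly in introns. Of the 71 pooled summits, 49 (69%) were in introns, which made up 68.7% of the window bases. Upstream stretches held 10 (14.1% against 9.59% of bases), coding exons 8 (11.3% against 17.4%) and UTRs 4 (5.63% against 4.30%). Of the 6 thresholded summits 4 were in introns, 1 in a coding exon and 1 upstream. None of the 6 lay within 1 kb of the 5' end of its own gene, and for 4 of them another protein-coding gene's 5' end was nearer. The same shares of all thresholded summits are not given here, so these counts are not read as particular to the members.

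Forkhead cores were present at few of these summits. Forkhead domains are known to bind the core with the 4 forms GTAAACA or GTAAATA or ATAAACA or ATAAATA, which were searched on both strands within 50 bp of each summit. Of the 6 thresholded summits 1 held a form, the ATAAATA at the unc-73 summit next to F55C7.2, beside 5.54% of all thresholded windows with any form. Of the 71 pooled summits 11 (15.5%) held one, beside 9.39% of all pooled windows. They were spread over 8 of the 10 genes, with 2 each at unc-40, vab-1 and unc-73, and mig-10 and unc-5 had none. The region at the start of unc-40 was one of them. The pentamer GACGC was at none of the 6, beside 20.3% of all thresholded windows. It was at 3 of the 71 (4.23%), beside 8.41% of all pooled windows. Mean G and C content was 39.3% ± 6.53 (SD over 6 windows) at the members' thresholded summits, and 43.5% ± 8.69 over all 2005. A match describes the letters only and does not show binding.

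The wider axon guidance lists, of 66 further genes, had a thresholded summit in the same kind of window at 18 (27.3%). These lists, too, were written with earlier results known. By window length the counts were 6 of 34 under 9 kb, 8 of 24 from 9 to 20 kb, 3 of 5 from 20 to 35 kb and 1 of 3 over 35 kb. The shares of all genes in these classes are those given above. Of the 22 thresholded summits behind them, 12 lay upstream and 8 in introns, and for 6 another gene's 5' end was nearer. These counts, too, stand without the same shares of all thresholded summits.

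**Figure D4:**
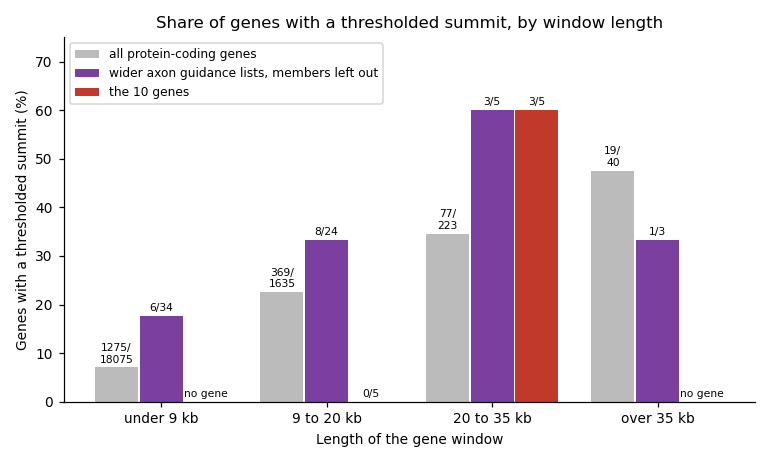
Share of genes with a thresholded summit (vertical axis, %) by length of the gene window (horizontal axis) for all protein-coding genes, the 66 further axon guidance genes and the 10 genes, with counts above the bars. Shares of all genes run from 7.05% to 47.5% with length, and the members have 0 of 5 in the 9 to 20 kb class and 3 of 5 in the 20 to 35 kb class.

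The Rac and cytoskeleton list, the longest, had 8 genes of 20. By window length these were 3 of 11 under 9 kb, 4 of 8 from 9 to 20 kb and 1 of 1 from 20 to 35 kb. Of all protein-coding genes 8.71% had a thresholded summit, and 7.05%, 22.6% and 34.5% in these classes. In this list the peaks of unc-14 (signal 63.0, 101 bp upstream), wve-1 (signal 61.0, 618 bp upstream) and gex-3 (signal 58.6, 80 bp upstream) lay close to their starts. UNC-14 is a binding partner of the kinase UNC-51, and wve-1 and gex-3 encode parts of the WAVE actin regulatory complex. The FEZ gene unc-76 had 3 peaks, with signals of 42.4, 43.5 and 34.5, and the first was nearer to the start of dnj-3. The kinase gene unc-51 (signal 49.5), the kinesin-like gene vab-8 (signal 35.6) and the CRMP gene unc-33 (signal 32.0) had upstream peaks. That of the navigator gene unc-53 (signal 30.6) was intronic, 19296 bp from its 5' end, and nearer to the start of F45E10.2.

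Beside the members of the netrin list, 2 of 8 genes had a summit, the ankyrin gene unc-44 (signal 30.9, 1232 bp upstream) and unc-115 (signal 28.2, in a coding exon), which encodes an actin-binding protein. Of the other 3 genes of the Slit list, eva-1, a receptor for SLT-1, had a summit with signal 37.0, and vhp-1, a MAP kinase phosphatase, had 2 with signals of 55.9 and 49.5, the weaker nearer to F09E5.14. Of 6 in the ephrin list, the ephrin gene efn-4 (signal 41.8) and the receptor phosphatase gene ptp-3 (signal 29.2, nearer to col-81) had intronic ones. The remaining lists gave plx-1 (signal 31.0), a plexin and 1 of 5 semaphorin and plexin genes, and lad-2 (signal 31.9) and fmi-1 (signal 30.8, nearer to W07G4.1) among 15 adhesion genes. The syndecan gene sdn-1 was 1 of 9 heparan sulfate genes and had 2 peaks, with signals of 71.5 upstream and 49.2 in an intron nearer to F57C7.4. The upstream peak of sdn-1 was the strongest of the 22, and ranked 147 in replicate 1 and 446 in replicate 2. Counts by window class follow, shortest first, with the members and empty classes left out. The netrin list had 1 of 2, 0 of 4 and 1 of 2, and the Slit list 1 of 2 and 1 of 1. The ephrin list had 0 of 4, 1 of 1 and, over 35 kb, 1 of 1. Semaphorin and plexin genes had 0 of 2, 0 of 2 and 1 of 1. Adhesion genes had 0 of 6, 2 of 6, 0 of 1 and 0 of 2, and heparan sulfate genes 1 of 7 and 0 of 2. The shares of all genes in these classes are given above.

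The tagged gene and the transgene's marker bear on how the lists are read. At fkh-10 none of the 4 lists had a summit in the window, so the label could not be checked there. At unc-119 the window held 1 thresholded and 6 pooled summits, with 6 in replicate 1 and 8 in replicate 2. Its window falls in the class under 9 kb, where 7.05% of genes had a thresholded summit. The median count of pooled summits in that class was 1 and the 95th percentile 3, so unc-119 lay above it. The part of the transgene in the regions at other genes was not tested.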

How the data were processed

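ChIP-seq peak lists of 2 replicates and of their pool were analysed on build ce11. Per the deposited descriptions of the files, regions were called for each replicate and for the pool against a control alignment, and an IDR step gave the thresholded list. The signal value of each region is as the authors deposited it. The sources used here name no aligner, caller or version, nor the scaling of the signal or the IDR threshold, and depth is unknown. The control and the lists on ce10 were not analysed here.

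Genes and transcript starts came from Ensembl release 115 (WBcel235). All peaks lay within the chromosomes of the RefSeq sequence of that assembly. A summit counted for every gene whose window, from 2 kb upstream of the 5' end to the gene's end, held it, so 1 summit can count for several genes. A replicate matched a pooled summit when its nearest summit lay within 150 bp. Intervals are exact binomial at 95% and cover counting error only. Window queries were tested on simulated summits. Python 3.11.15, numpy 2.4.6, scipy 1.17.1 and matplotlib 3.10.9 were used.

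The members, the 7 wider lists (76 of 78 symbols found) and the alternatives were chosen with earlier results of these data known, and the classes of window length after the members' lengths were known. Named are the members, every wider-list gene with a thresholded summit, and genes starting nearest to or holding such a summit. Y50D4C.12, which starts near a summit outside a window, was named after its values were seen.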

Additional observations from a re-analysis of the deposited data

How the results depend on the processing

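The number of members with a thresholded summit, 3, was the same with the gene body alone, with 1 kb upstream and with any base of the peak in place of the summit. The share of all protein-coding genes was 8.71%, and 2.56% with the gene body alone and 6.99% with 1 kb. For any base of the peak this share is not given, so nothing is read from the members' count there. The members numbered 6 with 5 kb upstream (12.9% of all genes), which added unc-5, sax-3 and unc-34, and so brought 2 of the netrin, Slit and ephrin genes past 0. They were 2 in the 1002 strongest peaks (4.44% of all genes), and 0 when each summit went only to the nearest 5' end within 1 kb (4.08%). The thresholded summits at the members numbered 6, and 3 in the 1002 strongest peaks. The strongest regions of 1 replicate in place of the thresholded list gave 3 to 4 members, 6 to 11 summits and 0 to 1 netrin, Slit and ephrin genes, where the higher values were those without replicate 1. The wider lists gave 18 genes, and 9 with the gene body alone, 7 in the 1002 strongest peaks, 5 by the nearest 5' end and 13 to 16 with 1 replicate left out. A forkhead form was at 1 thresholded summit, and at 0 in the 1002 strongest peaks and at 0 with either replicate left out. The 71 pooled summits became 35 in the stronger part of the pooled list and 72 to 73 with 1 replicate left out. The share of them found in both replicates, 29.6%, was 12.7% within 75 bp, 42.3% within 300 bp, 45.1% for any overlap of regions and 14.1% in the stronger part of each replicate's list. The share of all pooled summits, 24.8%, is given for the 150 bp setting alone. Nothing particular to the members is therefore read from the other settings. The cause of these differences was not tested, beyond what each setting adds or leaves out. No paired analysis was possible because the series has 1 group. The unknown depth limits every statement on a missing region.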
